A study of Homo sapiens with 8 samples.

Results

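Knockout of SNORA13 was compared with the wild type (WT) in BJ-HRAS fibroblasts after 7 days of 100 nM (Z)-4-hydroxytamoxifen (4-OHT), by ribosome profiling. The comparison used 4 of the series' 8 libraries, chosen by their labels: WT clones 15 and 54 and knockout clones 66 and 69, all with 4-OHT. The other 4 libraries are the same clones without 4-OHT, and they enter here where the genotype difference with 4-OHT is set beside that without it. All clones carry the label BJ-HRAS and all cells of the comparison received 4-OHT, so the WT group is HRAS-labelled and treated too. Each clone gave 1 library, so a genotype is 2 independent clones, and genotype and clone cannot be told apart.

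SNORA13 is a small nucleolar RNA of the H/ACA class. These RNAs bind dyskerin (DKC1) and its partner proteins and mostly guide the conversion of uridine to pseudouridine in ribosomal RNA, and a few have other roles in ribosome assembly. BJ is an established line of human skin fibroblasts. An active HRAS, a signalling GTPase, drives such cells into senescence, a lasting arrest of growth that comes with secretion of growth factors, proteases and cytokines. 4-OHT binds a modified oestrogen receptor domain, and proteins joined to that domain become active when it is added. Ribosome profiling sequences the mRNA stretches that ribosomes cover, so a value moves with the amount of an mRNA and with how densely ribosomes occupy it. In a bulk library, fewer footprints per cell and fewer cells of a kind cannot be told apart.

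The table with 4-OHT lists 11079 genes, and values are RPKM, reads scaled by the depth of the library and by the length of the gene's span, introns counted in. A level is therefore low for a gene with long introns, and levels are compared here between libraries and not between genes. The approximate reads behind the values were recovered from the values. They came to 1686830 and 588561 in WT clones 15 and 54 and to 190658 and 981336 in knockout clones 66 and 69. Clone 66 was the shallowest library, and 28.6% of the genes were listed at 0 there, against 4.28% to 11.6% in the other 3. With 3 reads as the smallest count to be relied on, a gene of 10 kb needed 1.57 RPKM in clone 66 and 0.178 RPKM in WT clone 15. All 12 fibroblast markers were listed, at 2.63% to 3.16% of the reads in WT and 2.77% to 2.82% in knockout libraries. The summed markers of leukocytes, epithelium, keratinocytes, endothelium and melanocytes each stayed at or below 0.0406% of any library. The leukocyte markers (5 of 13 listed) took 0.0269% and 0.0292% in WT and 0.0365% and 0.0406% in knockout clones, and the epithelial markers (4 of 9 listed) 0.0211% and 0.0197% against 0.0155% and 0.0111%. PTPRC, CD3E, EPCAM and CDH1, which define those cell types, were not analysed here, and the part of such cells in the results was not tested. SNORA13 has no open reading frame to profile. It, its host EPB41L4A-AS1, EPB41L4A, HRAS and CDKN2A were not analysed here, so the knockout itself was not checked from these values.

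No gene passed the main test. Of 7652 genes that had 10 or more recovered reads in 2 or more of the 4 libraries, limma-trend on log2(RPKM + 1) called 0 at an adjusted p under 0.05 (0%), and the smallest adjusted p was 0.823. An unadjusted p under 0.05 was reached by 360 genes (4.70%), of which 159 were higher and 201 lower in knockout. The fit had 2 residual degrees of freedom. The same genes tested by limma-voom, which weights each library by its recovered reads, gave 26 genes higher in knockout (0.340%) and 27 lower (0.353%) at an adjusted p under 0.05. All values called higher or lower below are limma-voom calls, and for each of these genes the limma-trend adjusted p was 0.823 or 0.824. The calls rest on both knockout clones: without clone 66 limma-voom called TAGLN, IGFBP2, PTGS2 and MT-ATP8 alone, and without clone 69 it called 0.

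Both knockout libraries lay above both WT libraries for 1469 of the 7652 genes (19.2%) and below both for 1407 (18.4%). Counts of members without overlap are read against these shares. The median log2 difference over all genes tested was -0.01, with 3722 of the 7652 positive and 3930 negative. Counts of sign are read against these numbers. With 2 libraries a group, the smallest p of an exact permutation test is 0.333 (3 splits), so no single gene was tested that way. The genes called higher by limma-voom had a mean of 23.2 reads or more over the 4 libraries and those called lower 50.1 or more, as the plot of the difference against reads shows.

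**Figure D1:**
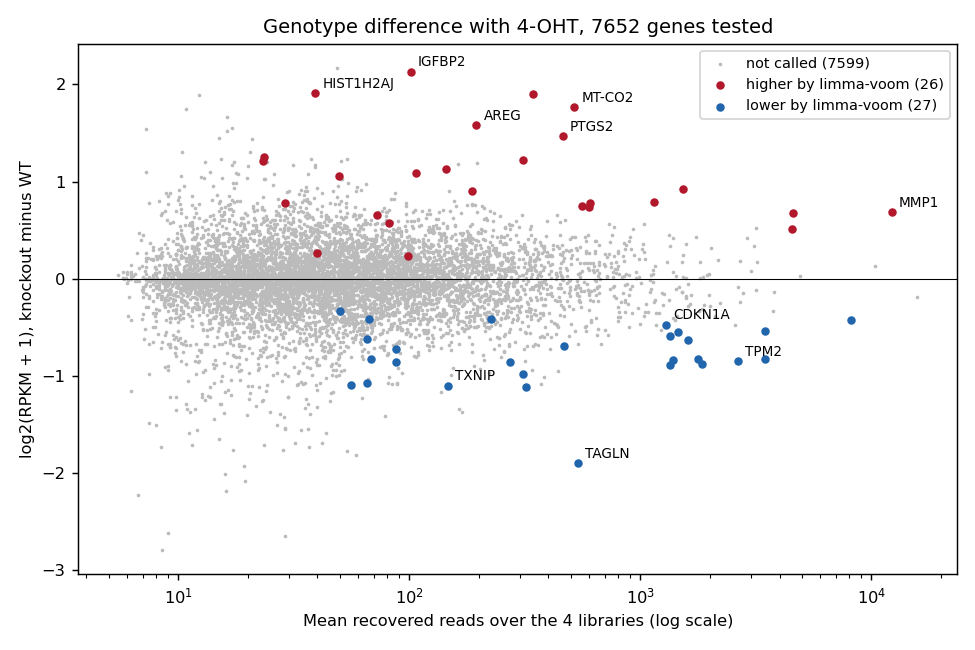
Log2(RPKM + 1) difference, knockout minus WT with 4-OHT, against the mean recovered reads over the 4 libraries on a log axis, with 1 point a gene. The 26 genes higher and 27 lower by limma-voom are coloured, and IGFBP2 and TAGLN lie at 2.13 and -1.90.

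A growth factor, a binding protein of growth factors and an enzyme of prostaglandin synthesis were among the genes called higher in knockout clones. IGFBP2, which binds insulin-like growth factors, stood at 1.51 and 0.876 RPKM in WT clones 15 and 54 and at 8.78 and 8.24 in knockout clones 66 and 69. The groups did not overlap and the ratio of the mean RPKM was 7.13, with a log2 difference of 2.13 (SE 0.28) by limma-trend and 2.69 (SE 0.33, adjusted p = 1.24e-09) by limma-voom. It was called in 8 of the 9 limma-voom fits. AREG, which encodes amphiregulin, a ligand of the EGF receptor, stood at 15.4 and 11.2 RPKM in WT and 44.1 and 38.6 in knockout clones. Every knockout value was above every WT value, and the ratio was 3.10 (limma-voom log2 difference 1.53, SE 0.24, adjusted p = 3.78e-06). PTGS2, the inducible enzyme of prostaglandin synthesis known as COX-2, stood at 29.2 and 42.9 RPKM in WT and 78.3 and 126 in knockout clones. Its groups were also apart, with a ratio of 2.84 (limma-voom log2 difference 1.68, SE 0.20, adjusted p = 1.24e-09), and it was called in 8 of the 9 limma-voom fits.

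The promoter windows of 5 named genes are shown because each gene was called: AREG, PTGS2 and IGFBP2 higher, and TXNIP and ARRDC4, a pair of related arrestins described further on, lower. They come from RefSeq on GRCh38.p14, 250 bases before to 50 after the gene start, read 5′ to 3′ on the gene's strand. AREG lies at chr4:74444886-74445185 on the plus strand, PTGS2 at chr1:186680374-186680673 on the minus strand and IGFBP2 at chr2:216632578-216632877 on the plus strand. TXNIP lies at chr1:145996530-145996829 on the minus strand and ARRDC4 at chr15:97960453-97960752 on the plus strand. Capitals mark the letters searched for, where they were found. These were TGACGTCA (the full form of the CRE) in AREG and PTGS2, and the CArG box in IGFBP2. In TXNIP and ARRDC4 they were CACGTG, a form of the E-box.
AREG: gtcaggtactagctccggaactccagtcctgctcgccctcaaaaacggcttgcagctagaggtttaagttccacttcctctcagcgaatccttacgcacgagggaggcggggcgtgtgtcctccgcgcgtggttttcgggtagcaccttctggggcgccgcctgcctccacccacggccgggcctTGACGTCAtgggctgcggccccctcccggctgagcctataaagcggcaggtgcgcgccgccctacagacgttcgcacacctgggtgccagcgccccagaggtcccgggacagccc
PTGS2: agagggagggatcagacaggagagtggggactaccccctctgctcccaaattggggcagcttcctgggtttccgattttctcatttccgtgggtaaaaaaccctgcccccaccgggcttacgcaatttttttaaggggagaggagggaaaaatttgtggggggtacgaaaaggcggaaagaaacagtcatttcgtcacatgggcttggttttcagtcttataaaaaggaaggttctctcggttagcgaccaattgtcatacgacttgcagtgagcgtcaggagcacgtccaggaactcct
IGFBP2: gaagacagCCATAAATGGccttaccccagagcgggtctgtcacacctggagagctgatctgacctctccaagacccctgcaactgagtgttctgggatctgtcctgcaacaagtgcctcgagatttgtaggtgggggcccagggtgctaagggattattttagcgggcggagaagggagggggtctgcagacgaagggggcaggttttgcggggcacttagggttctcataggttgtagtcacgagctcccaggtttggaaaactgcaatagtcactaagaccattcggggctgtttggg
TXNIP: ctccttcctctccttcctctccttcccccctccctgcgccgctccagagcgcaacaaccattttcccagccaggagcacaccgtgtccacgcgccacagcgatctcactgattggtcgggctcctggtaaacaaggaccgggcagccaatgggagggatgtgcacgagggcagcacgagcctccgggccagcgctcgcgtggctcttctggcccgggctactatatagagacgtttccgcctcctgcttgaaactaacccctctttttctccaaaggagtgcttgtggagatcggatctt
ARRDC4: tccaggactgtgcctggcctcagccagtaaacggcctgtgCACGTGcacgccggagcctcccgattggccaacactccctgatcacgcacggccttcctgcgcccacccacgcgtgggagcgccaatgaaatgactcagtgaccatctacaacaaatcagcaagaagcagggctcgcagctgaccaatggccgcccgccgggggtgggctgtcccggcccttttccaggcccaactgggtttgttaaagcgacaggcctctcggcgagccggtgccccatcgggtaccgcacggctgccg

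AREG held TGACGTCA once, beginning 65 bases before the start, IGFBP2 a CArG box 242 bases before it and ARRDC4 CACGTG 210 bases before it. PTGS2 and TXNIP held no match to the letters searched in them, and other forms of the CRE and the E-box were not searched. Windows were found for 18 of the 26 genes higher and 20 of the 27 genes lower in knockout. Searched on both strands, TGACGTCA was in 2 of the 18 and 2 of the 20, against 1.98% of all 27305 windows and 3.57% of those of tested genes. CACGTG was in 2 and 3, against 7.44% and 10.6%, and TGANTCA, the AP-1 site, in 0 and 1, against 7.76% and 4.33%. The CArG box, which is CC, then 6 A or T bases, then GG, was in 2 and 0, against 1.29% and 1.04%. TGACGTCA and TGANTCA share no full match, and none of the motifs contains another. These matches are letters in a window and say nothing of which factor bound there.

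Of the list of secretory factors, 26 of 50 genes could be tested. limma-voom called 5 higher, AREG, IGFBP2, PTGS2, STC1 and SERPINE2, and PLAT lower. The list had 10 genes with both knockout libraries above WT and 5 below, and a median log2 difference of 0.17 against -0.01 over all genes tested. STC1, which encodes the glycoprotein stanniocalcin-1, stood at 312 and 419 RPKM in WT and 485 and 553 in knockout clones (limma-voom log2 difference 0.59, SE 0.12, adjusted p = 0.00118). SERPINE2, an inhibitor of thrombin and of plasminogen activators, stood at 9.75 and 7.72 RPKM in WT and 17.5 and 13.1 in knockout clones. PLAT, the tissue plasminogen activator, stood at 149 and 131 RPKM in WT and 75.1 and 81.3 in knockout clones (limma-voom log2 difference -0.85, SE 0.13, adjusted p = 2.82e-06). STC1, SERPINE2 and PLAT were named after their values were seen.

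Other insulin-like growth factor binding proteins of the same list were not called. IGFBP4 stood at 58.1 and 62.1 RPKM in WT and 41.5 and 42.0 in knockout clones, and IGFBP6 at 138 and 171 against 117 and 94.4. IGFBP3 stood at 1.97 and 4.14 RPKM in WT, was listed at 0 in clone 66 and stood at 1.24 in clone 69, with a limma-trend log2 difference of -1.38 and a limma-voom adjusted p of 0.811. IGFBP5 stood at 8.72 and 4.92 RPKM in WT and 11.4 and 12.3 in knockout clones. IGFBP4, IGFBP5 and IGFBP6 too were named after their values were seen. PTX3, which is not in that list, is a secreted pattern-recognition protein of inflammation. It stood at 298 and 214 RPKM in WT and 130 and 143 in knockout clones, and it was called lower (limma-voom log2 difference -0.92, SE 0.17, adjusted p = 0.000132).

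A collagenase and an inhibitor of matrix proteases were called in opposite directions. MMP1, which cleaves fibrillar collagen, stood at 1412 and 1418 RPKM in WT and 2213 and 2343 in knockout clones. The knockout values were above WT by a ratio of 1.61, and the limma-voom log2 difference was 0.69 (SE 0.10, adjusted p = 3.36e-07). TIMP3, a tissue inhibitor of metalloproteases that binds to the matrix, stood at 43.7 and 29.7 RPKM in WT and 18.0 and 21.8 in knockout clones. It was called lower (limma-voom log2 difference -0.88, SE 0.16, adjusted p = 0.000132). Over the 14 metalloproteases and inhibitors tested, 2 lay above and 3 below WT without overlap, and the median log2 difference was -0.02.

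Genes lower in knockout included actin-binding and contractile proteins. TAGLN, which encodes transgelin, an actin-bundling protein of smooth muscle and activated fibroblasts, stood at 95.8 and 112 RPKM in WT and 23.3 and 31.4 in knockout clones. The groups were far apart, with a WT to knockout ratio of 3.79, a limma-trend log2 difference of -1.90 (SE 0.24) and a limma-voom one of -1.81 (SE 0.22, adjusted p = 1.35e-09). It was called in 8 of the 9 limma-voom fits. TPM2, a tropomyosin that lies along actin filaments, stood at 455 and 438 RPKM in WT and 261 and 235 in knockout clones (limma-voom log2 difference -0.89, SE 0.14, adjusted p = 2.82e-06). MYL9, the regulatory light chain of non-muscle and smooth-muscle myosin, stood at 193 and 200 RPKM in WT and 133 and 89.3 in knockout clones (limma-voom log2 difference -0.95, SE 0.16, adjusted p = 2.83e-05). Both knockout values were below both WT values for each of the 3 genes.

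Of the list of contractile and cytoskeletal proteins, 23 of 35 genes were tested, and 20 of them had a negative log2 difference. In 11 both knockout libraries lay below WT and in 1 above, and limma-voom called TAGLN, TPM2 and MYL9 lower and none higher. The median log2 difference was -0.17 against -0.01 over all genes tested, and it stayed between -0.22 and -0.14 over the alternatives. The list took 4.17% and 4.82% of the reads in WT clones 15 and 54 and 3.60% and 3.59% in knockout clones. The 20 genes that were not called reached a limma-voom adjusted p of 0.0751 at the lowest, for TMSB10, an actin-monomer binding protein at 5057 and 4109 RPKM in WT and 4290 and 3060 in knockout clones. Those groups overlapped.

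Other genes of the cell surface and matrix were called lower. CAVIN1, which coats caveolae, stood at 111 and 154 RPKM in WT and 76.0 and 66.0 in knockout clones (limma-voom adjusted p = 5.53e-05). TGM2, a transglutaminase that crosslinks proteins, stood at 11.0 and 9.90 RPKM in WT and 4.70 and 4.95 in knockout clones (limma-voom adjusted p = 0.00205). CCN1, a matricellular protein and immediate-early gene, stood at 717 and 615 RPKM in WT and 501 and 364 in knockout clones (limma-voom adjusted p = 0.00163). In all 3 both knockout libraries were below WT. EHD3, an ATPase of endosomal recycling, was lower as well, at 12.8 and 14.0 RPKM in WT and 5.94 and 5.42 in knockout clones (limma-voom adjusted p = 0.000191).

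TXNIP and ARRDC4 are related alpha-arrestins, both known to be induced by glucose and to limit its uptake. TXNIP stood at 57.6 and 39.1 RPKM in WT and 30.2 and 15.4 in knockout clones, and ARRDC4 at 8.22 and 5.82 against 3.99 and 1.86. In both genes the knockout values were below WT, with spread inside each group, and limma-voom gave log2 differences of -1.48 (SE 0.31, adjusted p = 0.00163) and -1.81 (SE 0.42, adjusted p = 0.0117). ARRDC4 rested on 10 recovered reads in clone 66. Of 20 tested genes of glycolysis and lactate, none was called by either test, 4 lay above and 5 below WT without overlap.

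Among the remaining genes called lower, GPX1, a glutathione peroxidase that removes peroxides, stood at 339 and 288 RPKM in WT and 209 and 143 in knockout clones (limma-voom adjusted p = 0.0117). BCL2L1, which encodes the survival protein BCL-XL, stood at 2.12 and 2.27 RPKM in WT and 0.718 and 0.819 in knockout clones (limma-voom adjusted p = 0.0434). KCTD4 stood at 12.1 and 6.37 RPKM in WT and 5.62 and 2.18 in knockout clones (limma-voom adjusted p = 0.0155). These rested on few reads in clone 66: 47, 8 and 9. On the other side, AKR1C1, an aldo-keto reductase of steroid metabolism, stood at 0.686 and 0.598 RPKM in WT and 3.16 and 2.66 in knockout clones (limma-voom adjusted p = 0.0397). F2RL1, a protease-activated receptor, stood at 0.837 and 0.625 RPKM in WT and 2.57 and 3.50 in knockout clones (limma-voom adjusted p = 0.0442). CAD, the enzyme that starts pyrimidine synthesis, stood at 1.23 and 2.04 RPKM in WT and 6.31 and 3.03 in knockout clones (limma-voom adjusted p = 0.0482). AKR1C1 rested on 7 recovered reads in WT clone 54 and 12 in clone 66, and F2RL1 on 6 and 8. AKR1C1, F2RL1 and CAD were each called in 2 of the 9 limma-voom fits, and GPX1, BCL2L1 and KCTD4 in 3. One of these fits needed at least 10 reads in all 4 libraries. AKR1C1, F2RL1, BCL2L1 and KCTD4 had fewer and were not tested in it.

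**Figure D2:**
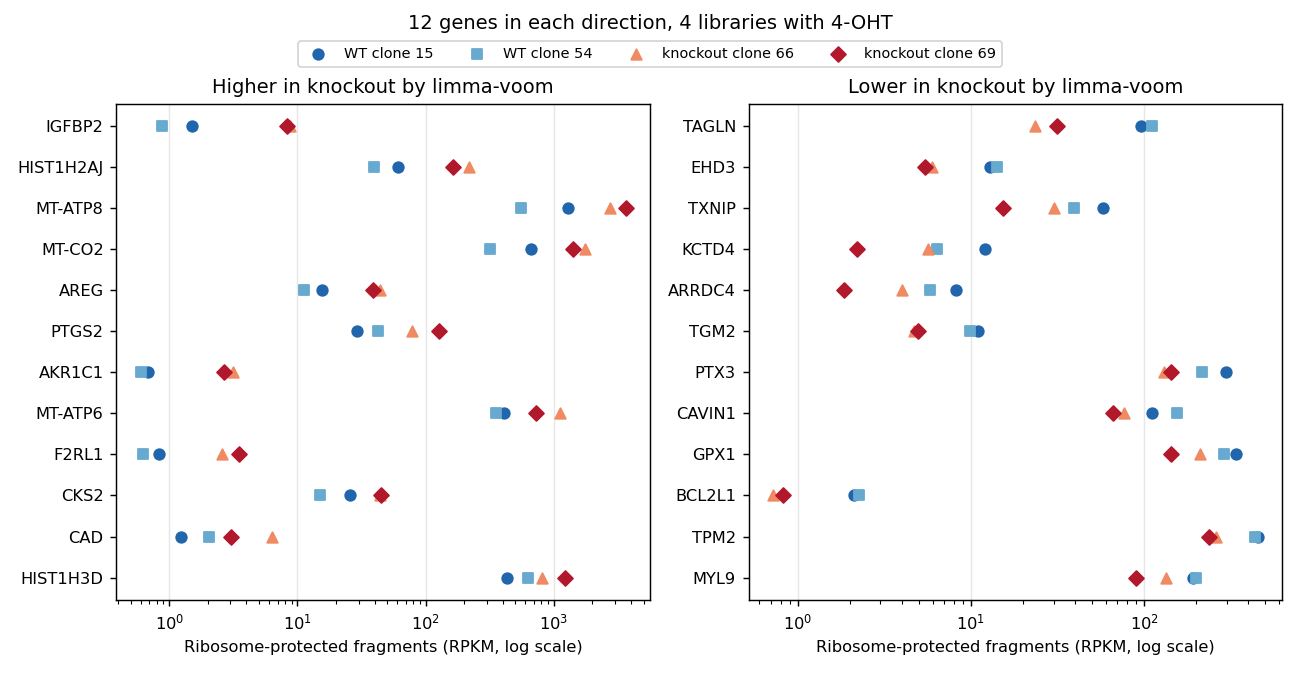
RPKM on a log axis in each of the 4 libraries with 4-OHT, for the 12 genes with the largest log2 difference in each direction among the limma-voom calls whose groups did not overlap. That choice puts both knockout clones of each gene on the same side of both WT clones. By the ratio of the mean RPKM, IGFBP2 is the widest apart of the genes called higher (7.13) and TAGLN of those called lower (3.79).

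Footprints on mitochondrially encoded mRNAs were higher in knockout clones. Of 13 such genes 4 were tested, and limma-voom called 3. MT-CO2, a subunit of cytochrome c oxidase, stood at 665 and 320 RPKM in WT and 1746 and 1408 in knockout clones (limma-voom log2 difference 1.57, SE 0.20, adjusted p = 4.85e-09). MT-ATP8, a subunit of ATP synthase, stood at 1283 and 558 RPKM in WT and 2759 and 3650 in knockout clones (limma-voom log2 difference 1.80, SE 0.23, adjusted p = 4.85e-09). MT-ATP6, the subunit next to it, stood at 410 and 357 RPKM in WT and 1115 and 719 in knockout clones. MT-ATP8 and MT-ATP6 overlap on the mitochondrial genome, so they may share reads. All 4 genes had both knockout libraries above WT, and together the 4 took 0.119% and 0.0619% of the reads in WT and 0.270% and 0.239% in knockout clones.

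In MT-CO2 and MT-ATP8 the WT clones differed from each other as well, with clone 15 higher than clone 54, but both stayed below the knockout clones. The nuclear-encoded subunits of the respiratory chain held no call: of 57 tested, 12 lay above and 16 below WT without overlap, and the median log2 difference was 0.01. For the mitochondrial ribosomal proteins the counts were 9 above and 13 below of 61, with a median of 0.03 and no call.

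Replication-dependent histone genes, whose mRNAs are mostly made in S phase, held 3 calls, all higher. HIST1H2AJ stood at 61.3 and 39.5 RPKM in WT and 217 and 163 in knockout clones, HIST1H3D at 434 and 624 against 803 and 1211, and HIST2H2BE at 73.0 and 62.7 against 103 and 159. The limma-voom adjusted p-values were 0.0251, 3.48e-07 and 0.0188. Histone genes are near-identical copies, and how reads that map to several copies were counted is not given in the sources used here, so values of single copies are uncertain. Of 50 tested, 39 had a positive log2 difference, but only 8 lay above WT without overlap and 1 below. The median log2 difference was 0.25, and it ranged from -0.16 to 0.67 over the alternatives. As a sum, the histones took 1.38% and 2.46% of the reads in WT and 1.94% and 2.46% in knockout clones, which overlap.

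Mitosis genes gave 16 of 47 with both knockout libraries above WT and 3 below, and a median log2 difference of 0.12. limma-voom called 1, CKS2, a small partner of cyclin-dependent kinases, at 25.7 and 15.1 RPKM in WT and 43.7 and 44.9 in knockout clones (log2 difference 1.05, SE 0.27, adjusted p = 0.0299). MKI67, the proliferation marker, stood at 1.41 and 1.54 RPKM in WT and 3.17 and 2.87 in knockout clones, with a limma-voom adjusted p of 0.263. UBE2C, an enzyme that feeds the anaphase-promoting complex, stood at 6.23 and 8.92 against 10.8 and 18.4, with an adjusted p of 0.169 by limma-voom. Of 44 DNA replication genes, 12 lay above and 4 below WT without overlap, none was called, and the median was 0.04.

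Genes that hold the cell cycle in senescence, and genes around them, held few calls. CDKN1A, which encodes the CDK inhibitor p21, stood at 172 and 129 RPKM in WT and 136 and 84.3 in knockout clones. The groups overlapped, the limma-trend log2 difference was -0.47 (SE 0.31), and limma-voom called it lower (log2 difference -0.65, SE 0.17, adjusted p = 0.0315). It was called in 2 of the 9 limma-voom fits, and its adjusted p was 0.498 without clone 66 and 0.862 without clone 69. MDM2, a ubiquitin ligase, stood at 3.70 and 2.64 RPKM in WT and 3.82 and 2.04 in knockout clones, which overlap. EPHA2, a receptor tyrosine kinase, was called lower, at 20.0 and 19.3 RPKM in WT and 12.1 and 11.5 in knockout clones (limma-voom adjusted p = 0.0442). EPHA2 too was called in 2 of the 9 limma-voom fits.

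Of 14 tested CDK inhibitors, cyclins and RB pathway genes, 6 lay above and 1 below WT without overlap. The only limma-voom call of that list was CDKN1A, lower. CDKN2D, a CDK4 and CDK6 inhibitor, had the smallest unadjusted p of that list (0.000968) by limma-trend, at 4.24 and 4.72 RPKM in WT and 16.7 and 12.9 in knockout clones. Its limma-voom adjusted p was 0.286, and it rested on few recovered reads, 18 and 7 in WT and 8 and 32 in knockout clones.

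Ribosomal proteins and the proteins that work with snoRNAs belong to the machinery in which SNORA13 acts. RPL5 and RPL11, which bind MDM2 when ribosome assembly fails, stood at 16.2 and 15.5 RPKM in WT and 16.3 and 20.9 in knockout clones, and at 138 and 130 against 156 and 166. Both lay above WT without overlap, by little, with limma-voom adjusted p-values of 0.890 and 0.809. RPL23, another ribosomal protein that binds MDM2, stood at 27.7 and 27.2 RPKM in WT and 27.7 and 27.1 in knockout clones. Its log2 difference was -0.0035 with an SE of 0.20, so a small difference in either direction would not have been detectable.

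Of 32 tested 60S ribosomal proteins, 13 lay above and 3 below WT without overlap, and the median log2 difference was 0.20. For 21 tested 40S ribosomal proteins the counts were 6 and 0, with a median of 0.05. By limma-voom the medians were 0.26 for 60S and 0.22 for 40S. Over the alternatives they ranged from 0.058 to 0.256 for 60S and from 0.014 to 0.248 for 40S, so the lists were not told apart. Neither test called any of them. RPL17 had the smallest unadjusted p of the 60S list (0.0123) by limma-trend, at 8.07 and 7.98 RPKM in WT and 23.3 and 13.9 in knockout clones, and RPS18 that of the 40S list (0.0339), at 16.4 and 20.3 against 34.2 and 26.2. The 60S proteins took 0.781% and 0.803% of the reads in WT and 0.876% and 0.917% in knockout clones. Many ribosomal protein genes have processed pseudogenes with which they may share reads. Without 4-OHT the median of the same 60S genes was 0.24 and that of the same 40S genes 0.26.

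DKC1, the pseudouridine synthase of H/ACA particles, stood at 5.36 and 4.66 RPKM in WT and 8.06 and 7.08 in knockout clones. GAR1, a protein of the same particles, stood at 4.56 and 6.44 RPKM in WT and 10.2 and 9.82 in knockout clones. Both were above WT without overlap and neither was called, with limma-voom adjusted p-values of 0.779 and 0.292. The 19 tested snoRNP and rRNA modification proteins gave 5 above and 2 below, and a median of 0.03. The 44 tested 60S assembly factors gave 8 above and 8 below, with a median of -0.04, and the 45 tested 40S assembly factors 5 and 10, with a median of -0.05. RNA polymerase I and III subunits gave 5 above and 6 below of 28. None of these lists held a call.

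SNORA13 lies at chr5:112161485-112161617 (GRCh38.p14). Within 1 Mb of it 6 genes were listed and 5 were tested, and none was called. REEP5, which shapes the endoplasmic reticulum, stood at 6.52 and 6.41 RPKM in WT and 4.57 and 4.11 in knockout clones, with a limma-trend log2 difference of -0.48 (SE 0.24) and a limma-voom adjusted p of 0.359. DCP2, the decapping enzyme, stood at 0.183 RPKM and 0 in WT and 0.346 and 0.269 in knockout clones. CAMK4 was at 0 in both knockout clones and at 0.0438 and 0.0628 RPKM in WT, on about 20 and 10 recovered reads. Its RPKM is low over a long span, and no ratio is given because the knockout values were 0. The limma-voom adjusted p was 0.353. Without 4-OHT CAMK4 was also at 0 in both knockout clones, and at 0.0224 and 0.0281 RPKM in WT.

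Most collagens and other matrix genes had a positive sign: 39 of 49 tested had a positive log2 difference, with 18 above and 5 below WT without overlap and a median of 0.18. COL12A1, a collagen that bridges fibrils, was called higher, at 8.97 and 7.84 RPKM in WT and 15.3 and 15.2 in knockout clones (limma-voom log2 difference 0.83, SE 0.16, adjusted p = 0.000286). THBS1, the matricellular protein thrombospondin-1, was called lower, at 263 and 194 RPKM in WT and 140 and 173 in knockout clones (limma-voom adjusted p = 0.0251). LOX, which crosslinks collagen, stood at 18.7 and 17.9 RPKM in WT and 27.8 and 25.2 in knockout clones and was not called. S100A4, 1 of the 12 fibroblast markers, was called lower, at 752 and 955 RPKM in WT and 611 and 519 in knockout clones (limma-voom adjusted p = 0.0434). THBS1 and S100A4 were each called in 3 of the 9 limma-voom fits, and COL12A1 in 7.

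Genes of cholesterol synthesis lay below WT without overlap in 13 of 25 and above in 3, with a median log2 difference of -0.16 and none called. MSMO1, a sterol demethylation enzyme, stood at 19.9 and 15.8 RPKM in WT and 9.13 and 13.6 in knockout clones. SCD, a desaturase of fatty acids in the same list, stood at 18.9 and 18.3 against 10.1 and 14.8. Without 4-OHT the median of these genes was 0.16. Several other lists also held no call: the proteasome (7 above and 11 below of 38), translation factors (8 and 4 of 39), ATF4 targets (4 and 3 of 22), interferon response (4 and 4 of 26) and lysosome (9 and 5 of 34).

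**Figure D3:**
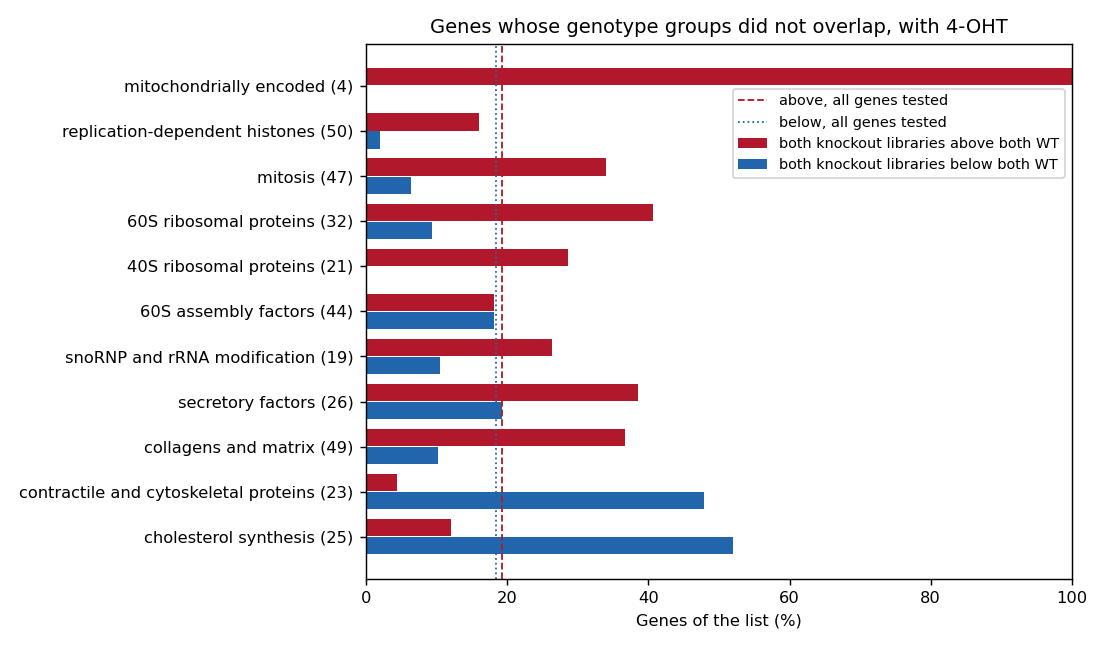
Percent of the tested genes of each list (number in parentheses) with both knockout libraries above both WT libraries (upper bar) or below both (lower bar), with lines at 19.2% and 18.4% for all genes tested. The upper bars of the mitochondrially encoded, 60S ribosomal protein, secretory, matrix and mitosis lists are among those past the first line, and the lower bars of the contractile and cholesterol synthesis lists among those past the second.

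The 4 libraries of the same clones without 4-OHT were set beside these results. Of the 26 genes higher with 4-OHT, 17 had the same sign without it and 12 lay above WT without overlap. Of the 27 lower, the numbers were 19 and 11. The matching shares over all genes tested are not given here, so these counts have no background and are a description. The median log2 difference without 4-OHT over all genes tested was -0.01. IGFBP2 was apart in both treatments, with log2 differences of 2.13 with and 2.11 without 4-OHT, and so was PTGS2, with 1.47 and 2.35. The 3 mitochondrially encoded genes lay above WT without 4-OHT too, but on few reads. MT-ATP6 had about 2 and 0 reads in WT and 4 and 19 in knockout clones there, MT-CO2 11 and 1 against 12 and 27, and MT-ATP8 5 and 3 against 9 and 13, so the size of their difference without 4-OHT is uncertain. MMP1 overlapped between the genotypes without 4-OHT, at 15.8 and 9.21 RPKM in WT and 3.63 and 22.3 in knockout clones, and so did HIST1H2AJ, at 35.2 and 16.3 against 11.5 and 39.3. AREG had about 1 and 0 reads in WT and 0 and 11 in knockout clones without 4-OHT, too few to compare. IGFBP2, PTGS2, MMP1, HIST1H2AJ, AREG and the mitochondrially encoded genes passed neither interaction test. Some called genes lay on the opposite side without 4-OHT, also without overlap. There CCN1 stood at 333 and 267 RPKM in WT and 388 and 362 in knockout clones, and S100A4 at 199 and 191 against 257 and 205. HIST2H2BE, called higher with 4-OHT, stood at 22.8 and 25.4 against 17.2 and 19.2 without it. CCN1, S100A4 and HIST2H2BE passed neither interaction test. The genes here were chosen by their difference with 4-OHT, so a smaller one without it is a description.

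**Figure D4:**
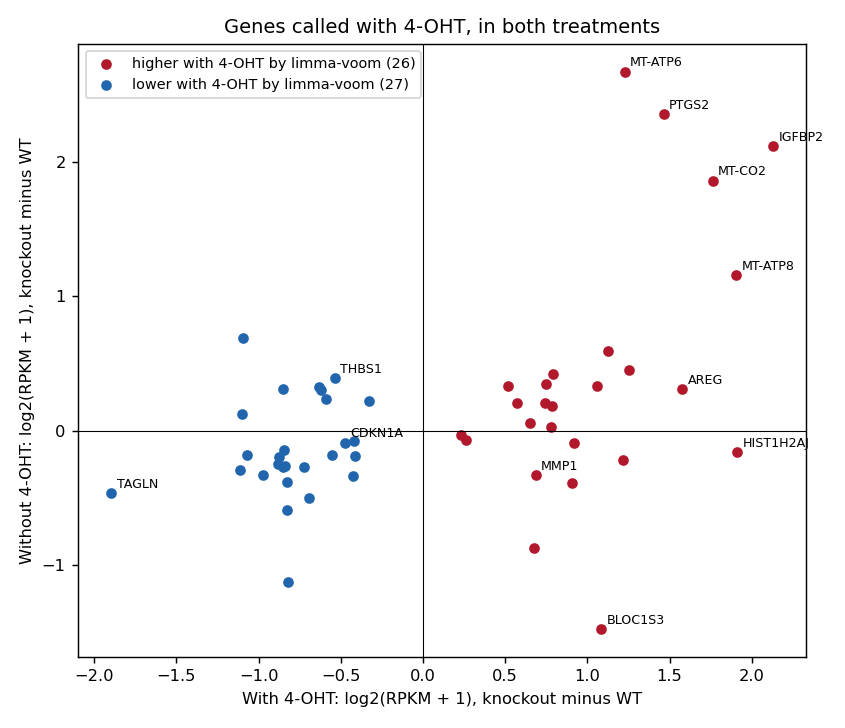
Log2(RPKM + 1) difference, knockout minus WT, without 4-OHT (vertical) against that with 4-OHT (horizontal), for the 26 genes called higher and 27 called lower with 4-OHT by limma-voom. IGFBP2 and PTGS2 lie high on both axes, as do the 3 mitochondrially encoded genes, which rest on few reads without 4-OHT. The groups of HIST1H2AJ and MMP1 overlap without 4-OHT.

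Whether the genotype difference itself differed between treatments was tested by the interaction over all 8 libraries. limma-trend called 0 of 8689 genes (0%), with an unadjusted p under 0.05 for 451, and limma-voom called 4 (0.0460%), TAGLN, THBS1, CITED2 and COL1A1. Without 4-OHT TAGLN stood at 411 and 373 RPKM in WT and 293 and 274 in knockout clones, so the groups were apart in both treatments, and further on the log2 scale with 4-OHT. THBS1 stood at 2335 and 2146 RPKM in WT and 3022 and 2849 in knockout clones without 4-OHT, the reverse of the order with it. CITED2, a transcriptional co-regulator, stood at 614 and 653 against 1179 and 1067 without 4-OHT, and at 144 and 162 against 122 and 97.1 with it. COL1A1, the main chain of type I collagen, stood at 1699 and 1594 against 1223 and 983 without 4-OHT, and at 77.1 and 89.2 against 106 and 116 with it. In THBS1, CITED2 and COL1A1 the order of the genotypes turned over between the treatments, without overlap in either. The 2 treatments are in tables that were normalised separately, so the levels are compared within each table.

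**Figure D5:**
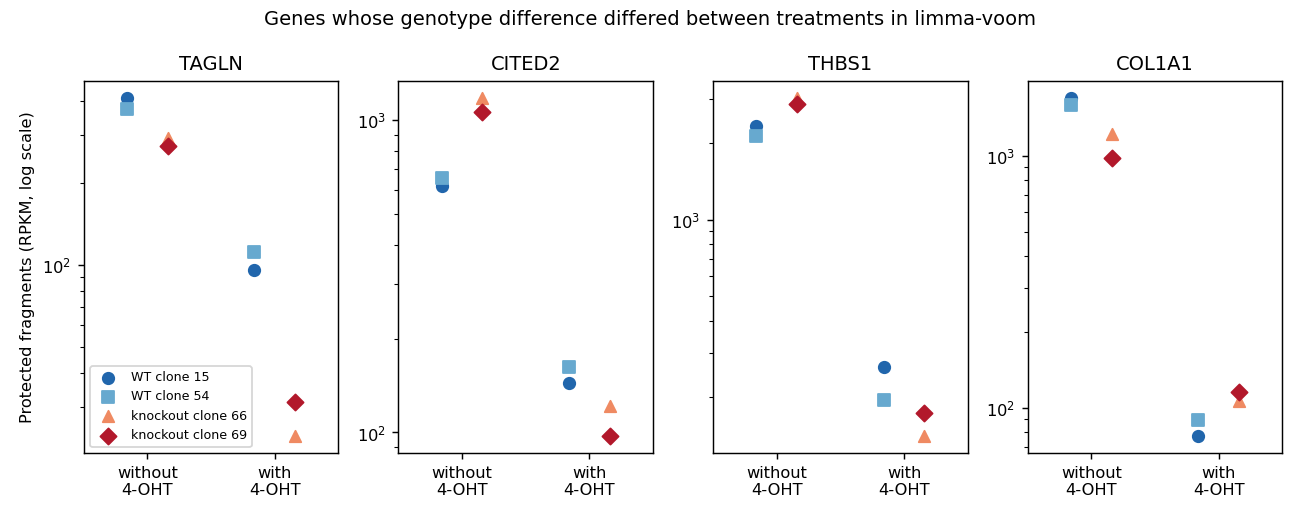
RPKM on a log axis in all 8 libraries, without and with 4-OHT, for the 4 genes called by the limma-voom interaction, with 1 symbol a clone. TAGLN is lower in knockout clones in both treatments, and in the other 3 genes the genotypes change order.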

How the data were processed

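Ribosome-protected fragments were isolated and sequenced after McGlincy and Ingolia, per the labels' protocols. The submitters' processing notes name STAR and GRCh38, while the sources used here do not give the counter, the annotation or the treatment of multi-mapped reads. The values deposited by the authors were taken as RPKM over the gene span from the values themselves, since the tables state no unit: value times span gave totals that were close to equal over the libraries. Spans came from RefSeq on GRCh38.p14, and 99 of 11079 genes had none and were left out of the tests. Reads were recovered from whole steps of low values, 76.5% to 84.7% of which lay within 0.1 of a whole number, so they are approximate, and so are the filter and limma-voom.

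Tests used limma 3.58.1 in R 4.3.3 on log2(RPKM + 1) (limma-trend) over genes with 10 or more reads in 2 or more of the 4 libraries, with Benjamini-Hochberg adjustment and a threshold of 0.05. The added 1 shrinks the log2 differences of low genes. limma-voom on recovered reads was a named alternative, and no count model was used as the main test. The scripts were tested on simulated data, drawn with the same spread setting for every gene. That run does not show how the tests behave where clones vary gene by gene. A set of 12 genes per direction was named by the largest log2 difference among called genes with at least 20 mean reads and groups that did not overlap, filled from limma-voom calls, with a fixed panel and up to 3 genes of smallest p per list. The members and lists were chosen with earlier results of these data known. Motifs were chosen after the called genes were known. The labels say that the clones are independent. p-values measure the spread between these clones only in part, since both tests draw each gene's spread toward that of all genes. In limma-trend the pooled spread counted for a median of 3.73 degrees of freedom, beside 2 of the gene's own. The figure for limma-voom is not given here. A very small limma-voom p-value from 2 clones a genotype does not by itself show a small spread between clones. limma-voom could thus call genes whose groups overlap. BLOC1S3 was called higher at 1.16 and 5.55 RPKM in WT and 13.7 and 3.33 in knockout clones (limma-voom adjusted p = 0.0276). Its unadjusted p was 0.197 by limma-trend and 0.000122 by limma-voom. Some items are not reported here.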

Additional observations from a re-analysis of the deposited data

Results flagged for a closer look

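Genotype differences that differed between treatments in the limma-voom interaction (knockout minus WT with 4-OHT, minus the same without, on the log2 scale) were found for 4 genes, and limma-trend gave each an adjusted p of 0.856. TAGLN had an interaction of -1.32 (limma-voom adjusted p = 0.0198), THBS1 -0.94 (adjusted p = 0.0145 by limma-voom), CITED2 -1.37 (adjusted p = 0.0145 by limma-voom) and COL1A1 1.05 (adjusted p = 0.0145 by limma-voom). With the clone as a replicate block the limma-voom adjusted p-values were 0.0142 for TAGLN and 0.00874 for each of the other 3. All 4 genes had both knockout libraries on the same side of both WT libraries in each treatment, and in THBS1, CITED2 and COL1A1 that side differed between the treatments. Groups of 2 libraries were too small for a search for single outlying samples.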

How the results depend on the processing

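The count of genes called by limma-trend was 0 with a pseudocount of 0.1, no filter, median-ratio scaling, without ribosomal protein, histone and mitochondrially encoded genes, and with all 8 libraries. It was 2 (TAGLN and IGFBP2) with at least 10 reads in all 4 libraries, 53 by limma-voom, and 0 to 800 with each library left out in turn, where the 800 came without knockout clone 69 and so from the shallow clone 66 alone, the lone library being assumed to vary like the others. For limma-voom the count of 53 became 19 with at least 10 reads in all 4 libraries, 35 with median-ratio scaling, 24 with all 8 libraries and 0 to 210 with each library left out in turn (85 without WT clone 15, 210 without WT clone 54, 4 without clone 66 and 0 without clone 69). The genotypes share no clones, so no paired test of them was possible. The clone as a replicate block over all 8 libraries gave 0 by limma-trend and 24 by limma-voom, and the correlation within a clone was 0.063 and 0.070. For the interaction, limma-voom called 4 genes and 7 with the replicate block, and limma-trend with the block 0. All limma-voom fits other than the main one for each comparison, the replicate block included, were chosen after the data were seen. Single calls depended on the fit. SERPINE2, ARRDC4, CKS2 and HIST1H2AJ were each called in 3 of the 9 limma-voom fits, and AREG, MMP1, TPM2 and MYL9 in 7. ARRDC4 was not tested in the fit with at least 10 reads in all 4 libraries, since its 10 reads in clone 66 are a rounded value.

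Of 1512 alternative values of 131 named genes, 1439 kept direction and call, 65 passed the threshold and 8 turned sign: MDM2 to 0.07 without WT clone 15 and 0.22 without clone 69, RPL23 to 0.00893 and 0.012 likewise, CD14 to 0.61 without clone 69, KRT10 to 0.00869 without WT clone 54, and MITF to -0.17 by limma-voom and -0.014 without clone 66. With each library left out in turn, the log2 difference ranged from -0.44 to 0.22 for MDM2, -0.019 to 0.012 for RPL23, -0.87 to 0.61 for CD14, -1.25 to 0.00869 for KRT10 and -0.014 to 0.15 for MITF. Of 252 alternative list medians of 36 lists, 174 moved by less than the spread between clones and 78 by more.

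Depth limits the comparison through clone 66: a gene with few reads there could not be told from one at 0. A 2 against 2 design leaves 2 residual degrees of freedom, so genes that missed the threshold are not shown to be alike.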
